A study of Homo sapiens with 3 samples.

Results

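The AP-1 and immediate early transcription factors examined here are 10 genes, namely FOS, FOSB, FOSL1, FOSL2, JUN, JUNB, JUND, ATF3, EGR1 and KLF4. They were chosen by name with earlier results of these data known, as were the genes of the related lists below. Counts of members and lists are thus set beside the shares of all genes as description only. Every probe set of the array annotated to any of the 10 members was taken. This gave 19 of the 22283 probe sets, and 10 of the 11963 genes that a probe set names without another gene. The cells were CAL 27, an established line of a poorly differentiated squamous cell carcinoma of the tongue. They had been stably transfected with pEGFPC1 carrying nm23-H1 (expressing GFP-Nm23-H1), with pEGFPC1 carrying nm23-H2, or with the empty vector (expressing GFP alone), and all were grown in serum-containing medium. The design text describes clones for the nm23-H1 construct and 1 clone for the vector, so construct and clone cannot be told apart. Each of the 3 groups was measured on 1 array. No group had a replicate, no p-value was computed, and no difference below has a replicate check.

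AP-1 is a dimer of proteins with a basic region and leucine zipper (bZIP). A FOS family protein pairs with a JUN family protein, JUN proteins also pair with each other, and ATF3 can join JUN proteins. FOS, FOSB, JUN, JUNB, ATF3 and EGR1 are classical immediate early genes, transcribed within minutes of a growth factor or stress signal from pre-existing factors, mostly through the MAP kinases, and their transcripts are short-lived. FOSL1 (Fra-1) and FOSL2 (Fra-2) are induced later and last longer, and Fra-1 is known for its part in the migration of carcinoma cells. KLF4 is a zinc finger factor of differentiating stratified epithelium.

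Values are MAS5 signals, scaled so that the arrays had the same trimmed mean. Lower signals were raised to a floor of 28.3 signal units, the pooled median, before log2 was taken, and a difference is a bound where either array lay at it. The error given is the probe error, taken from the disagreement between the brightest and next brightest probe sets of 1 gene. This disagreement was scaled down to the part of a single probe set, so probe sets of 1 gene differ from each other by more. A difference is called beyond the probe error when it is larger than 1 SD. The SD of the probe error was 0.32 (log2) in the comparison of nm23-H1 with vector, 0.35 in that of nm23-H2 with vector and 0.38 between the nm23 constructs. It covers neither cultures, clones nor hybridisations. Of the 10 members 9 passed the floor on some array, and in each comparison 11 of the 19 probe sets passed it on both arrays. A signal from a whole culture cannot tell fewer expressing cells from less RNA per cell.

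The nm23-H2 array stood apart in its controls. Its 9 bacterial spike-in probe sets, which report RNA added at hybridisation, were 1.60-fold those of the vector array after scaling (range 1.33 to 1.89), against 0.926-fold on the nm23-H1 array. The 3′ over 5′ signal ratio, a sign of RNA integrity, was 1.41 with nm23-H1, 1.90 with nm23-H2 and 1.75 with vector for ACTB, and 0.878, 1.04 and 0.881 for GAPDH. NME1, the gene of Nm23-H1, gave 2378 signal units with nm23-H1, 1134 with nm23-H2 and 1518 with vector. A probe set that NME2 shares with NME1-NME2 gave 2321, 4853 and 2269 in the same order, so each transcript was highest on the matching array. All 8 squamous epithelial markers that could be measured singly, with KRT5, KRT14, CDH1 and EPCAM among them, passed the floor on all 3 arrays, with summed signals of 28198, 43127 and 33203 for nm23-H1, nm23-H2 and vector. The part of these array and marker differences in the results was not tested. Of 8 fibroblast markers 2, 2 and 1 were above the floor on the nm23-H1, nm23-H2 and vector arrays, with COL1A1, COL3A1 and DCN below it on each, and their summed signals were 171, 164 and 138. Of 6 leukocyte markers 4, 2 and 3 were above it, PTPRC (CD45) was below it on all 3, and the summed signals were 262, 160 and 201.

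With nm23-H1, 8 of the 10 members were lower than with vector, against 47.7% of the 7988 measured genes. FOSL2 was lower by so little that spike-in scaling turned it to 0.05, JUN was lower by a bound of 0.05, and ATF3 (-0.19) was within the probe error. The other 2, FOS and FOSB, were below the floor on both arrays. None of the 10 was at least 2-fold lower or higher, while 1.73% of the 7988 measured genes were at least 2-fold lower and 2.14% higher. Of their 19 probe sets 0 were at least 2-fold lower and 0 higher, against 1.69% and 2.16% of the 12995 measured probe sets. At 1.5-fold, 3 of 10 members were lower, namely FOSL1, KLF4 and JUND, against 7.51% of all measured genes, and 0 were higher, against 8.63%. By the mean of their probe sets KLF4 (-0.45) and JUND (-0.36) were under 1.5-fold. The median member difference was -0.26 (log2), and that of all measured genes was 0. With nm23-H2, 8 members were higher than with vector, against 40.3% of all measured genes, and FOSB was among them by a bound of 0.02. JUND was lower and FOS was below the floor. However, EGR1, FOSL2, JUNB and JUN came out lower than vector when the arrays were scaled on the spike-ins. FOSL1 and ATF3 were the 2 of 10 members at least 2-fold higher, against 3.61% of all measured genes, and 0 were at least 2-fold lower, also against 3.61%. Of the 19 probe sets 2 were at least 2-fold higher and 0 lower, against 3.55% and 3.32% of all. At 1.5-fold, 3 members were higher, namely FOSL1, ATF3 and KLF4, against 10.6% of all genes, and JUND was lower, against 14.1%. By the mean of their probe sets KLF4 (0.54) and JUND (-0.37) were again under 1.5-fold. Here the median was 0.55 for the members and -0.05 for all measured genes. Both comparisons use the same vector array, so they are not independent of each other.

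**Figure D1:**
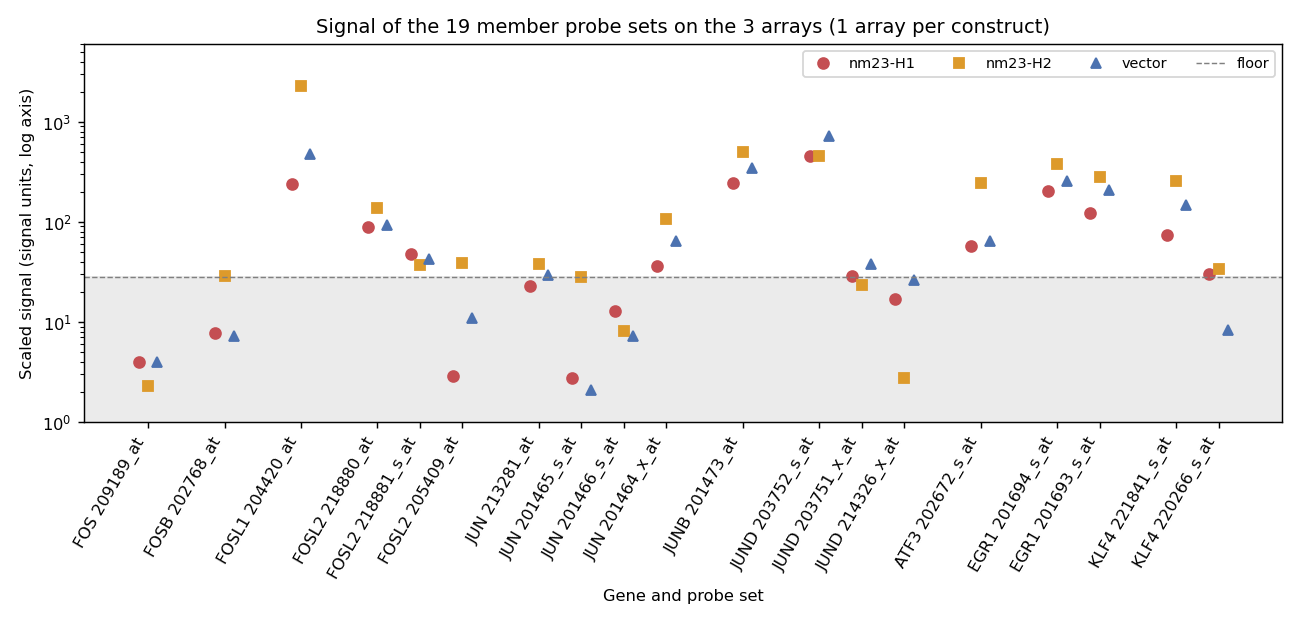
Scaled signal (log axis, signal units) of each of the 19 member probe sets on the nm23-H1, nm23-H2 and vector arrays, 1 point per array; the grey area lies below the floor of 28.3. Where neither the nm23-H2 nor the vector point falls in the grey area, FOSL1 and ATF3 show the widest gaps between these arrays. Wider gaps occur inside the grey area, as for a dim JUN probe set (27.9 with nm23-H2 and 2.10 with vector). FOS lies below the floor on all 3 arrays.

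FOS (chromosome 14, 75278828 to 75282230, GRCh38.p14 here and for the members that follow), the founding member of the family, was close to the background of the arrays. Its probe set gave 3.997 signal units with nm23-H1, 2.29 with nm23-H2 and 3.98 with vector, and 27 probe sets for bacterial transcripts outside the hybridisation spike-ins ranged from 0.512 to 40.0, from 0.265 to 26.7 and from 0.221 to 26.2 on the same arrays. FOS was below the floor on all 3 arrays, and no fold is given. FOSB (chromosome 19, 45467996 to 45475179) gave 7.79 signal units with nm23-H1, 28.8 with nm23-H2 and 7.30 with vector. Only its nm23-H2 signal passed the floor, by a margin that left a difference of 0.02 from vector, and this bound becomes 1.81 when the floor is put at the 25th percentile (8.21 signal units).

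FOSL1 showed the widest spread of the 10 members. Its 1 probe set gave 240 signal units with nm23-H1, 2295 with nm23-H2 and 476 with vector. It was thus lowest with nm23-H1 and highest with nm23-H2, at 1.98-fold lower and 4.82-fold higher than vector (log2 -0.99 and 2.27), both beyond the probe error. The 200 genes nearest to FOSL1 in mean signal had a median difference of -0.02 with nm23-H1 and of -0.05 with nm23-H2. Over 12 other settings the FOSL1 difference ranged from -0.99 to -0.88 with nm23-H1 and from 1.59 to 2.59 with nm23-H2. FOSL1 lies on chromosome 11 (65892049 to 65900545), and the 20 measured genes around it, from MAP3K11 to CD248, had medians of -0.01 and 0.26.

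FOSL2 (chromosome 2, 28392858 to 28417317), the closest relative of FOSL1, stayed under 2-fold in each comparison. The probe set used gave 88.5 signal units with nm23-H1, 136.9 with nm23-H2 and 92.1 with vector, a difference from vector of -0.06 and of 0.57. Its other probe sets did not agree in direction. A second one gave 47.9 with nm23-H1, 37.5 with nm23-H2 and 42.8 with vector (0.16 and -0.19), and another passed the floor with nm23-H2 alone, at 38.7 signal units (at least 0.45 on the log2 scale above vector).

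Of the JUN family, which supplies the partners of the FOS proteins, JUN itself (chromosome 1, 58780791 to 58784047) was dim and its probe sets disagreed in size. The probe set used gave 23.0 signal units with nm23-H1, 37.8 with nm23-H2 and 29.3 with vector, so that it was at least 0.05 (log2) lower than vector with nm23-H1, whose signal lay under the floor, and 0.37 higher with nm23-H2. The brighter one, whose name (_x_at) marks probes that may match other transcripts, gave 36.2 with nm23-H1, 106.9 with nm23-H2 and 64.0 with vector, which is -0.82 and 0.74. The other 2 probe sets of JUN were below the floor on all 3 arrays. Both measured probe sets were thus lowest with nm23-H1 and highest with nm23-H2, by amounts that depended on the probe set.

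JUNB, which forms AP-1 dimers of weaker activity than JUN and can oppose it, gave 246 signal units with nm23-H1, 497 with nm23-H2 and 344 with vector. It was lowest with nm23-H1 and highest with nm23-H2, at -0.48 and 0.53 from vector, each beyond the probe error and under 2-fold. The 20 measured genes around JUNB (chromosome 19, 12791486 to 12793315), from PRKCSH to STX10, had a median of 0.22 with nm23-H1 and of 0.40 with nm23-H2. Relative to these neighbours JUNB was lower with nm23-H1 and near their level with nm23-H2, and the part of the neighbourhood in the result was not tested.

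JUND, the JUN gene that is transcribed steadily rather than on stimulation, was the 1 member lower than vector on both nm23 arrays. It gave 451.6 signal units with nm23-H1, 451.9 with nm23-H2 and 717 with vector. The nm23 arrays thus lay together below vector, each 1.59-fold lower (log2 -0.67). A second probe set gave 28.9 with nm23-H1, close to the floor, 23.5 with nm23-H2 and 38.4 with vector. That is -0.41 and, with nm23-H2 at the floor, at least 0.44 lower. Another probe set was below the floor on all arrays. The names of both end in _x_at, so their probes may match other transcripts. The 20 genes around JUND (chromosome 19, 18279694 to 18281622) had medians of 0.03 and -0.26.

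ATF3, which is switched on by ATF4 and other factors in cells under stress and can act as a repressor, was 3.79-fold higher with nm23-H2. Its 1 probe set gave 57.2 signal units with nm23-H1, 246.9 with nm23-H2 and 65.1 with vector. The nm23-H1 difference of -0.19 was within the probe error, and the nm23-H2 difference of 1.92 was beyond it. Over 11 other settings the nm23-H2 difference ranged from 1.24 to 2.25. The 20 genes around ATF3 (chromosome 1, 212565407 to 212620777) had medians of -0.02 and -0.11.

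EGR1 (chromosome 5, 138465479 to 138469303) and KLF4 (chromosome 9, 107484852 to 107489769) are zinc finger factors outside AP-1. The probe set of EGR1 used here gave 202 signal units with nm23-H1, 381 with nm23-H2 and 255 with vector, and the other gave 124, 281 and 209. Both put nm23-H1 lowest and nm23-H2 highest, with differences from vector of -0.34 and -0.75 with nm23-H1 and of 0.58 and 0.43 with nm23-H2. KLF4 gave 74.6 signal units with nm23-H1, 259.3 with nm23-H2 and 147.7 with vector, the same order, at 1.98-fold lower and 1.75-fold higher than vector (log2 -0.99 and 0.81). Its second probe set was dim, at 30.1, 33.9 and 8.29 signal units, and read as at least 0.09 and at least 0.26 above vector, so for nm23-H1 it did not show the lower level.

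**Figure D2:**
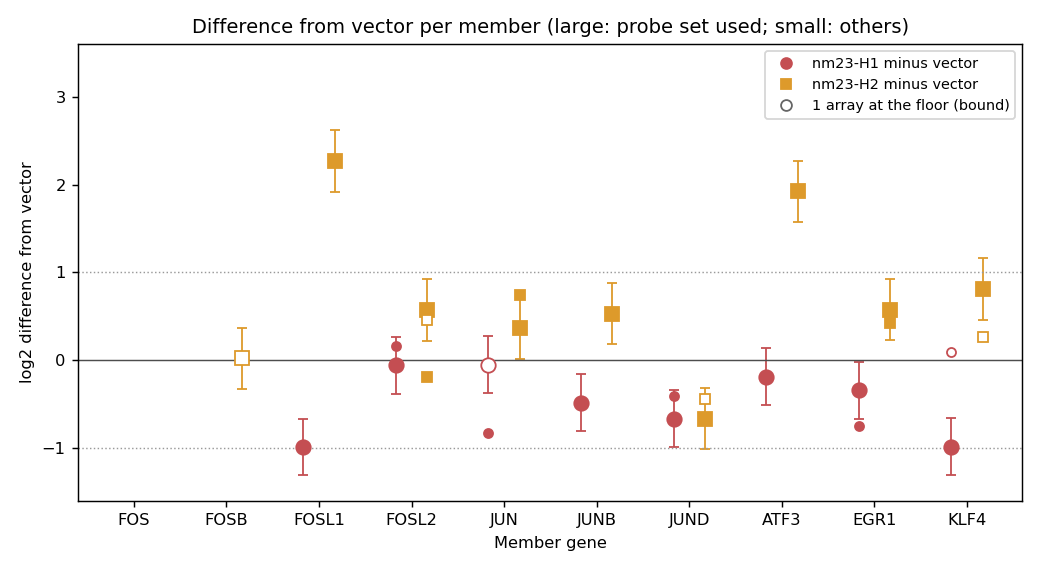
Difference from vector (log2) per member for nm23-H1 (circles) and nm23-H2 (squares); large symbols are the probe sets used, with the probe error as bars (SD 0.32 and 0.35), small ones the other probe sets, and open ones bounds with 1 array at the floor. FOSL1 (2.27) and ATF3 (1.92) with nm23-H2 lie past 1, the other points do not, and FOS has no point because all its signals were below the floor.

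The sequence before the transcription start is shown for 4 members, with RefSeq sequences of assembly GRCh38.p14. ATF3 is shown as the member at least 2-fold higher with nm23-H2 for which a sequence was at hand, JUN because it carries the same 8-base element as ATF3, EGR1 for its serum response elements, and JUND as the member with the opposite direction with nm23-H2. Each stretch is the 250 bases before the start, 5′ to 3′ on the gene's strand. Capitals mark matches, on either strand, to TGACTCA (the AP-1 site), TGACGTCA (the CRE), TGACG, TGACATCA, GCGNGGGCG (an EGR site) and the CArG box of serum response factor, and matches to TATAAA on the gene's strand. All 4 were picked with their values known.
ATF3, chr1:212565157-212565406, plus strand: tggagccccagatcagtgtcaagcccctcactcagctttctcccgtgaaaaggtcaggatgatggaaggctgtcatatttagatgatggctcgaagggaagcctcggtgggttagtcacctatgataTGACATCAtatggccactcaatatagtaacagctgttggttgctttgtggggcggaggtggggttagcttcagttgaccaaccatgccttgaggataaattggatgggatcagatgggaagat
JUN, chr1:58784048-58784297, minus strand: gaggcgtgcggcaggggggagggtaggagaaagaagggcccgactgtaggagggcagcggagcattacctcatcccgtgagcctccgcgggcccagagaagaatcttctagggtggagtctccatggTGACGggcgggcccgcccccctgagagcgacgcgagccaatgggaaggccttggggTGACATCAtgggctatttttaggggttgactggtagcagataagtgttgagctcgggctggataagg
EGR1, chr5:138465229-138465478, plus strand: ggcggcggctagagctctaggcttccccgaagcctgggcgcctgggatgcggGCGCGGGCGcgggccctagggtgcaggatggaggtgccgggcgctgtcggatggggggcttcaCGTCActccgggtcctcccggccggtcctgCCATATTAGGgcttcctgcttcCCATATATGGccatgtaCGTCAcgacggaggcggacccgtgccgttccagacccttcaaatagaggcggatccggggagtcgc
JUND, chr19:18281623-18281872, minus strand: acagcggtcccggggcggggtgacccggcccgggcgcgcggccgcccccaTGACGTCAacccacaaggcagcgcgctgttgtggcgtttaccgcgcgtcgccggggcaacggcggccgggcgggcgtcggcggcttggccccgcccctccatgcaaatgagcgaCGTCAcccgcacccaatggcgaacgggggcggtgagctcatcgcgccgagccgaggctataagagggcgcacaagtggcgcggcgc

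The element TGACATCA stood 123 to 116 bases before the outermost annotated start of ATF3 and 67 to 60 bases before the start of JUN. Of 35116 windows of this length, 2.38% hold this element. EGR1 held CArG boxes at 105 to 96 and 83 to 74 bases before its start (CCATATTAGG and CCATATATGG), a motif found in 1.16% of windows, and an EGR site, found in 8.42%. JUND held the CRE, which stands in 1.65% of windows, and it contains TGACG on both strands. TGACG by itself, held by 21.2% of windows, was found for 8 of the 9 members with a window (FOS, FOSB, FOSL2, JUN, JUNB, JUND, EGR1 and KLF4). KLF4 also held an EGR site, and TGACTCA, held by 4.20% of windows, was found for none of the 9. A second window of ATF3, 250 bases before another start (chr1:212614768-212615017), held TATAAA alone. Any further starts of ATF3 were not searched, and which start these cells use was not measured. TATAAA, held by 6.80% of windows, also stood before FOS, FOSB and JUNB. These are matches of letters, and no binding was measured.

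Set directly against nm23-H2, nm23-H1 was lower for 8 of the 9 measured members, against 39.6% of all measured genes. The scaling and the floor still came from all 3 arrays. FOSB was lower by a bound of 0.02 and JUN by a bound of 0.42, and JUND was level (451.6 signal units with nm23-H1 and 451.9 with nm23-H2). Spike-in scaling, which moved the median of all measured genes to 0.71 here, put FOSL1 at -2.46, ATF3 at -1.32, KLF4 at -1.003, JUNB at -0.22, EGR1 at -0.12, JUN at 0, FOSL2 at 0.16 and JUND at 0.79. At least 2-fold lower were 4 of 10 members, against 3.82% of the 7988 measured genes, and 0 were at least 2-fold higher, against 3.74%. Of their 19 probe sets 6 were at least 2-fold lower and 0 higher, against 3.81% and 3.59% of all. The 4 members were FOSL1 (9.55-fold lower, log2 -3.26), ATF3 (4.32-fold, -2.11), KLF4 (3.48-fold, -1.80) and JUNB (2.02-fold, -1.01). At 1.5-fold, 6 members were lower, against 10.7% of all genes, and 0 higher, against 16.1%. EGR1 was 1.89-fold lower (-0.92), or -1.18 by its other probe set. The JUNB value lay at the threshold and was at least 2-fold lower under 7 of 12 other settings. Among those with less than 2-fold were quantile normalization (-0.94), a common median above the floor (-0.92) and spike-in scaling. KLF4 was at -0.98 by the mean of its probe sets. Over the 11 member probe sets with neither array at the floor the differences ran from -3.26 to 0.35 with a median of -1.01, and 10 of the 11 were negative. FOSL2, by its second probe set, gave the positive value.

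Other bZIP factors gave a mixed picture with nm23-H1 and several high values with nm23-H2. Of 22 measured, 1 was at least 2-fold higher and 0 lower with nm23-H1, with a median of -0.05, and 7 were at least 2-fold higher and 0 lower with nm23-H2, with a median of 0.40. The shares over all measured genes were 2.14% higher and 1.73% lower with nm23-H1 (median 0), and 3.61% each way with nm23-H2 (median -0.05). The gene with nm23-H1 was CREB3, an ER-bound factor, at 416 signal units against 171 with vector. MAFF, a small MAF protein without a transactivation domain, gave 344 signal units with nm23-H2 and 45.3 with vector (7.60-fold), although its other probe set gave 0.88 (log2). DDIT3, which encodes the stress factor CHOP, gave 705 with nm23-H2 and 125 with vector (5.65-fold). CEBPB was 3.02-fold and NFIL3 2.43-fold higher, and the other 3 of the 7 were ATF4 (1.09 log2), CREB3 (1.13) and XBP1 (1.24). ATF4, a regulator of ATF3, gave 527 signal units with nm23-H1, 1962 with nm23-H2 and 921 with vector, again lowest with nm23-H1 and highest with nm23-H2. BATF and BATF3, further partners of JUN proteins, were below the floor on all 3 arrays.

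Of 26 other immediate early genes measured, 17 were lower and 7 higher than vector with nm23-H1, against 47.7% and 49.6% of all measured genes. Their median was -0.26 against 0 for all measured genes. TSC22D1 was the 1 gene at least 2-fold lower (187 signal units with nm23-H1 and 393 with vector, 2.10-fold), and 0 were at least 2-fold higher, against 1.73% and 2.14% of all measured genes. With nm23-H2, 19 were higher and 6 lower, against 40.3% and 54.2% of all measured genes. The median was 0.50, against -0.05 for all measured genes. At least 2-fold higher were 8, with 0 lower, against 3.61% of all measured genes each way. The 8 were GADD45A, a growth arrest gene (4.501-fold), IER3 (3.998-fold), DUSP1, a phosphatase of MAP kinases (3.53-fold), NFKBIA, the inhibitor of NF-kB (3.22-fold), F3, tissue factor (3.08-fold), and MCL1, PPP1R15A and ZFP36 (1.44, 1.37 and 1.35 log2). A second probe set of DUSP1 was at the floor and gave 0. The list holds a counterexample in IER2, at 502 signal units with nm23-H1, 452 with nm23-H2 and 875 with vector, a pattern like that of JUND. Between nm23-H1 and nm23-H2, 10 of the 26 were at least 2-fold lower with nm23-H1 and 0 higher, against 3.82% and 3.74% of all measured genes. EGR3, a relative of EGR1, was below the floor on all 3 arrays.

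**Figure D3:**
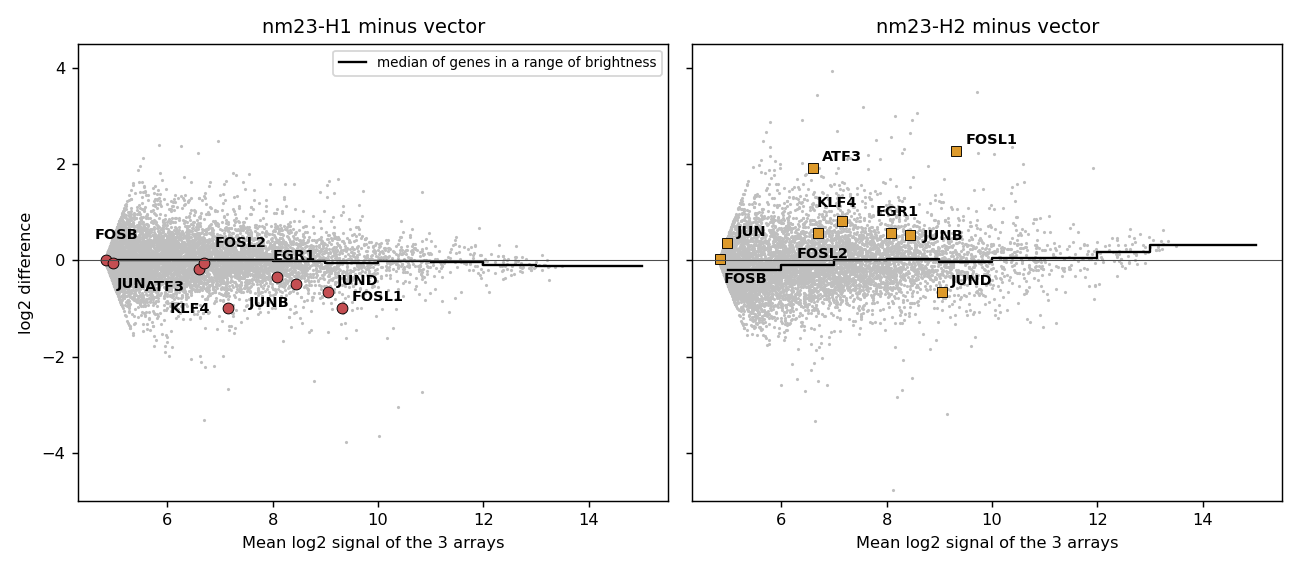
Difference from vector (log2) against mean log2 signal of the 3 arrays for all 7988 measured genes (grey), with the 9 measured members named and the median of all genes in ranges of brightness as a black line. With nm23-H2 the median moves from -0.19 in the dimmest full range to 0.31 in the brightest, while FOSL1 and ATF3 lie far above the line.

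The kinases and serum response factors upstream of the immediate early genes had medians of 0 in both comparisons with vector. Of 32 measured, 0 were at least 2-fold different with nm23-H1, against 2.14% of all measured genes higher and 1.73% lower. With nm23-H2, 3 were at least 2-fold higher and 0 lower, against 3.61% each way. These were MAPK3 (ERK1), at 69.7 signal units with nm23-H1, 80.1 with nm23-H2 and 35.8 with vector, ETS2 (2.12-fold) and RPS6KA3 (1.02 log2). The probe set of MAPK3 was of the _x_at kind, which may match other transcripts, and another one of ETS2 gave 0.68. RPS6KA3 gave 30.9 signal units with vector, close to the floor. MAPK3 was 1.94-fold higher with nm23-H1. SRF, the factor that binds the CArG box, gave 63.3, 68.1 and 41.6 signal units with nm23-H1, nm23-H2 and vector, so it was above vector on both arrays (0.61 and 0.71). MAPK8, which encodes JNK1, a kinase of JUN, was below the floor on all 3 arrays.

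Phosphatases and feedback inhibitors of MAP kinases, themselves targets of the pathway, included both lower and higher genes. With nm23-H1, 2 of 16 measured were at least 2-fold lower and 0 higher, against 1.73% and 2.14% of all measured genes. DUSP6, the phosphatase of ERK, gave 32.0 signal units with nm23-H1, 354 with nm23-H2 and 146 with vector, and DUSP5 gave 79.0, 321 and 191 on the same arrays. Both were lowest with nm23-H1 and highest with nm23-H2, as FOSL1 was. The other probe sets of DUSP6 gave -0.96 and -0.65 with nm23-H1. With nm23-H2, 5 of 16 were at least 2-fold higher and 0 lower, against 3.61% of all measured genes each way. The largest values were those of TNFAIP3 (A20), known as a feedback inhibitor of NF-kB (10.9-fold, or 2.60 on the log2 scale by its other probe set), and PHLDA1, a pleckstrin homology-like protein (7.97-fold, with 0.31 to 2.69 by its other probe sets), and neither is a MAP kinase phosphatase. The other 3 were the phosphatases DUSP4 (0 by another probe set), DUSP6 and DUSP1, the last of which also stands among the immediate early genes above.

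Genes known as targets of AP-1 split in both comparisons. With nm23-H1, 10 of 33 measured were at least 2-fold lower and 1 was at least 2-fold higher, against 1.73% and 2.14% of all measured genes, with a median of -0.25. The lower ones included SPRR1A and SPRR1B, which encode cornified envelope proteins, VEGFA and HBEGF, although 3 further probe sets of VEGFA gave -0.36 to -0.89, while MMP13, a collagenase with an AP-1 site in its promoter, was at 111 signal units with nm23-H1 and 11.6 with vector. Under nm23-H2, 6 exceeded vector 2-fold or more and 3 were lower to that degree, against 3.61% of all measured genes each way, with a median of 0.12. HBEGF, a ligand of the EGF receptor, gave 731 signal units with nm23-H2 and 113 with vector (its other probe sets gave 3.11 and 0 on the log2 scale), whereas the collagenase gene MMP1 gave 79.8 with nm23-H2 and 521 with vector, and MMP10 7.41 with nm23-H2 and 157 with vector. FOSL1 and MMP1 were thus opposite on the nm23-H2 array. PLAU, urokinase, and TGM1, a cross-linking enzyme of the cornified envelope, were lowest with nm23-H1 and highest with nm23-H2. PLAU gave 177, 678 and 405 signal units with nm23-H1, nm23-H2 and vector, and TGM1 gave 36.6, 208 and 85.7.

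**Figure D4:**
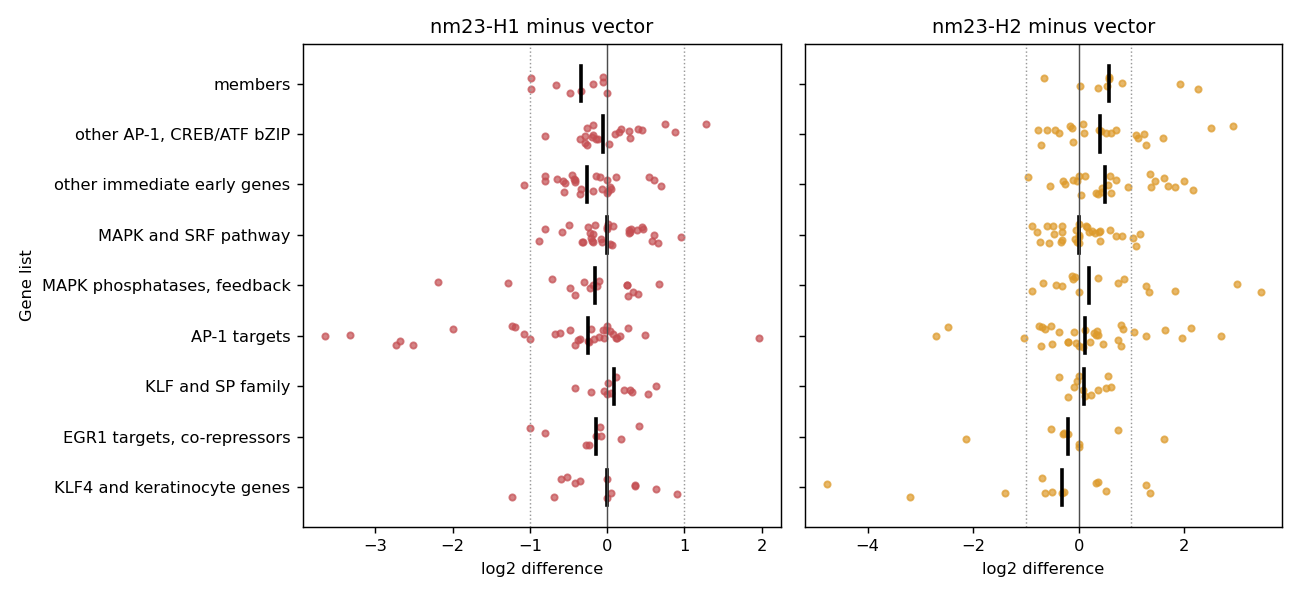
Difference from vector (log2) of every measured gene in the members' list and 8 related lists, 1 point per gene, with the median of each list as a black bar and dotted lines at 2-fold. The bars of the members and of the other immediate early genes lie left of 0 with nm23-H1 (-0.34 over the 9 measured members and -0.26) and right of it with nm23-H2 (0.57 and 0.50).

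None of 12 measured genes of the KLF and SP family was at least 2-fold different in either comparison with vector, and the medians were 0.08 and 0.10. For this list and those that follow, the shares of all measured genes with nm23-H1 were 2.14% higher and 1.73% lower (median 0). With nm23-H2 they were 3.61% each way (median -0.05). KLF5, the family member of proliferating basal epithelium, gave 239.8, 461 and 321 signal units with nm23-H1, nm23-H2 and vector, the order of KLF4 at smaller size. NAB1 and NAB2, the co-repressors of EGR1, differed from vector by -0.08 and -0.09 with nm23-H1 and by -0.28 and -0.29 with nm23-H2. Of 9 measured EGR1 targets and co-repressors, 0 were at least 2-fold different with nm23-H1, and with nm23-H2 F3 was higher and ID3 lower. Their medians were -0.14 with nm23-H1 and -0.21 with nm23-H2. For 13 measured keratinocyte genes linked to KLF4 the medians were 0 with nm23-H1 and -0.33 with nm23-H2. TGM1 was the 1 gene of these at least 2-fold lower with nm23-H1, and 0 were higher. With nm23-H2, CDKN1A (p21), a target of KLF4, was higher (291 signal units against 114 with vector), as was TGM1, while KRT4, KRT13 and CDKN1C were at least 2-fold lower, with -0.09 for another probe set of KRT4 and 0 for 4 others of CDKN1C, which lay at the floor.

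Genes nearest in pattern were looked up for FOSL1, ATF3 and KLF4 among 4885 genes that passed the floor on all 3 arrays and 66.2 signal units on at least 1, by the distance over both log2 differences from vector. With 3 arrays such a match rests on 2 numbers per gene. Nearest to FOSL1 were IER3, F3, DUSP1, NFKBIA and DNAJB9, at distances of 0.60 to 0.75. Nearest to ATF3 were MICAL2, RGS3, DNAJB9, GNA15 and DUSP1, at 0.18 to 0.25. KLF4 had closer matches, at 0.04 to 0.15, in DDX50, PIEZO1, STC2, SLC12A4 and SERPINE2.

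**Figure D5:**
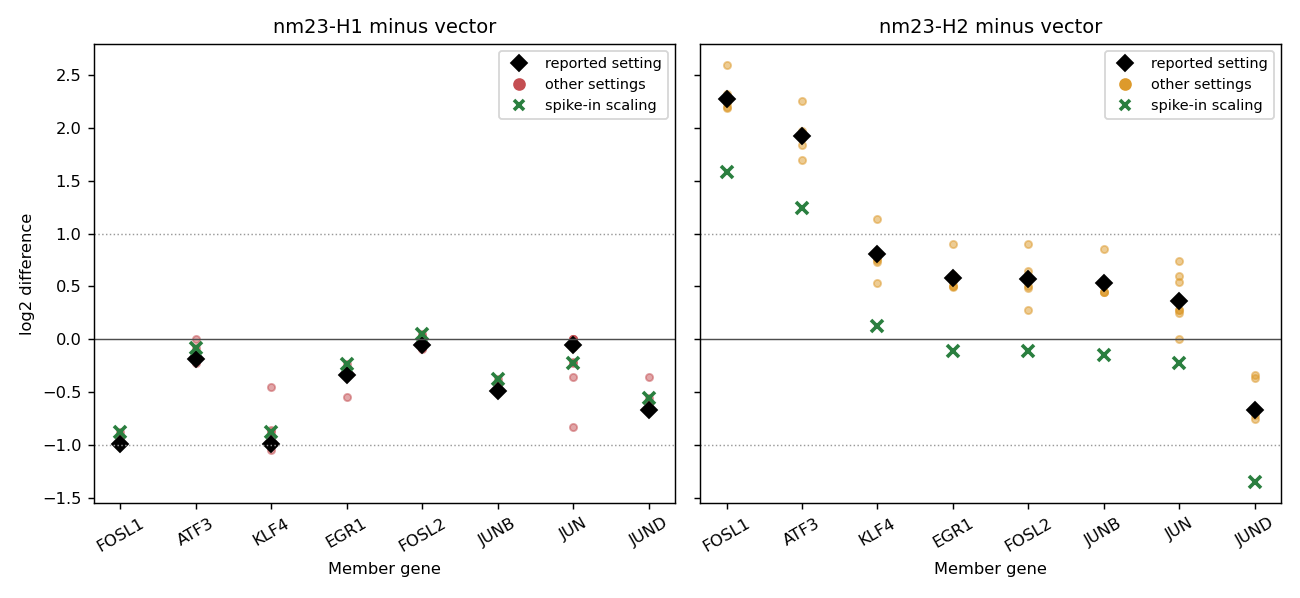
Difference from vector (log2) of 8 members under the reported setting (diamonds), the other settings (circles) and scaling on the bacterial spike-ins (crosses). FOSL1 and ATF3 with nm23-H2 stay above 1 under every setting shown, while EGR1, FOSL2, JUNB and JUN change sign under spike-in scaling.

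The smaller differences with nm23-H2 depended on the scaling. When the arrays were scaled on the spike-in probe sets, the median of all measured genes moved to -0.58 for nm23-H2 against vector. FOSL1 and ATF3 were then at 1.59 and 1.24, KLF4 at 0.13, EGR1 and FOSL2 at -0.11, JUNB at -0.15, JUN at -0.23 and JUND at -1.35. Relative to that median they were at 2.17 and 1.82 for FOSL1 and ATF3, between 0.36 and 0.71 for KLF4, EGR1, FOSL2, JUNB and JUN, and at -0.77 for JUND. With nm23-H1 the median of all genes moved to 0.11, and FOSL1 and KLF4 were at -0.88 and -0.87.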

How the data were processed

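Total RNA of 3 CAL 27 transfectants was hybridised, 1 array each. The deposited values are linear signal intensities per probe set, made by the authors with MAS5 per the submitters' processing notes; version and scaling target are not given in the sources used here. Each array was multiplied (nm23-H1 by 1.02, nm23-H2 by 0.882, vector by 1.11) to a common mean without the lowest and highest 2% of values. The floor was then set and log2 taken. Of the 22283 probe sets, 19071 had 1 gene symbol in the platform annotation, 1043 several and 2169 none; only those with 1 were used, apart from the NME2 probe set. For each gene 1 probe set was used, taken from those without _x_at in the name where there were any, and the brightest of them. Named were all members and, per list and comparison with vector, up to 4 genes with the largest difference among those reaching the 70th percentile (66.2 signal units); further genes were chosen after their values were seen. The members and lists were chosen with earlier results of these data known. Genes were counted from 2-fold on. The steps were tested on simulated data. The number of arrays limits the precision. Sequences and gene positions came from RefSeq tables of GRCh38.p14. Alternatives are given in the closing section. The tools were scipy 1.17.1, pandas 2.3.3 and numpy 2.4.6 under Python 3.11.15, with figures by matplotlib 3.10.9.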

Additional observations from a re-analysis of the deposited data

How the results depend on the processing

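No paired analysis was possible because each group had 1 array. The values were recomputed unscaled, scaled to 1 median over signals past the floor, and with quantile normalization; with the floor moved to the 25th or 70th percentile or replaced by adding 16; with probe sets averaged per gene or restricted to names in plain _at; without the array outside the comparison; and at 1.5-fold. Spike-in scaling, centring on 200 genes of like brightness and the brightest probe set whatever its name were chosen after seeing the data. Of 348 differences of single members under an alternative, 320 moved by less than the probe error, 28 by more, and 0 of those at 2-fold or more changed sign. Part of the 320 was fixed in advance. FOS lay at the floor wherever a floor was set. FOSL1 and JUNB have 1 probe set each, above every floor used. They kept their values when only the floor or the choice of probe set changed. With nm23-H1 against vector, the count of members at least 2-fold lower was 0 and became 1 (KLF4) with quantile normalization and 3 at 1.5-fold. With nm23-H2 against vector, 2 members were at least 2-fold higher, and 1 with probe sets ending in plain _at, which leave out ATF3 and 3 other members. The count became 3 with unscaled values (KLF4 at 1.14), with the floor at the 25th percentile (FOSB at 1.81) and at 1.5-fold (KLF4). The count at least 2-fold lower was 0 and became 1 (JUND) at 1.5-fold and with spike-in scaling, under which the median member difference was -0.05337. With nm23-H1 against nm23-H2, 4 members were at least 2-fold lower, 2 with probe sets ending in plain _at, and the median was -0.06085 with spike-in scaling. The spike-ins were brighter on the nm23-H2 array, so that this scaling lowers all its genes; which scaling is right was not tested. Members near the floor (FOS, FOSB, JUN) are limited by signal over background.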
